A study of Chlorocebus aethiops with 3 samples.

Results

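Proteasome subunit mRNAs were followed into the heavy polysomes of COS-7 cells, which derive from African green monkey kidney, grow like fibroblasts and carry the SV40 large T antigen. The set was defined by 39 human RefSeq identifiers of the core particle (PSMA1 to PSMA7, PSMB1 to PSMB7 and PSMB10), the ATPases (PSMC1 to PSMC6), the other components of the regulatory particle (PSMD1 to PSMD14) and the activators (PSME1 to PSME3), which cover 38 genes because PSMA1 has 2 identifiers. Of the 39 identifiers, 37 had a probe on the array, out of 32695 accessions in all. The PSMA1 identifier NM_002786 and the PSMD13 identifier NM_002817 had none, so PSMA1 was measured through NM_148976 and PSMD13 was not measured. All 37 passed the filter on dim probes, and none of their spots was saturated. Each identifier was represented by its brightest probe. The array files give identifiers and no gene symbols, and the symbols used here follow the order in which the list defining the set names the subunits.

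Knockdown cells were COS-7 cells that received siRNAs targeting the helicase RHA (RNA helicase A). The siRNAs were designed on the coding region of the human message and used at 0.5 nM. An incubation of 24 h was stated for all 3 replicates. Control cells were COS-7 cells given scrambled siRNA. Cytoplasmic lysates of both were spun through sucrose gradients of 15% to 45%, and the heavy polysome fractions, which hold mRNAs carrying many ribosomes, were pooled. The 3 biological replicates were each hybridised to 1 array of human probes, with knockdown RNA always in Cy5 and control RNA always in Cy3, so that a difference between the dyes cannot be told apart from the knockdown.

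The proteasome is the protease that degrades proteins tagged with ubiquitin. Its core particle is a barrel of stacked rings: the outer rings of alpha subunits guard the entrance, and the inner rings of beta subunits hold the active sites. The regulatory particle caps the barrel. Its base, with a ring of ATPases, unfolds the substrate, and its lid removes the ubiquitin chain. The subunits are assembled in fixed proportions, so the complex draws on many mRNAs at once.

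The message of RHA itself was not shown to be lower. Its probe A_24_P36847 had log2 ratios of knockdown over control of -0.12, -0.12 and -0.76 on replicates 1, 2 and 3 (mean -0.33 ± 0.37, SD, n = 3), and A_23_P97749 had -0.041, -0.20 and -0.60 (mean -0.28 ± 0.29, SD, n = 3). Neither passed limma's test, with adjusted p of 0.210 and 0.217. A further probe, A_24_P808534, did not pass the filter on dim probes and was not tested, with -0.29, 0.13 and -0.12 (mean -0.093 ± 0.21, SD, n = 3). The share of the 41000 probes that stood well above background was 45.5% to 53.1% in the knockdown channel and 37.5% to 50.7% in the control channel. Before normalization the knockdown channel was the brighter, with a median log2 ratio over the tested probes of 0.58, 0.88 and 1.26 on replicates 1, 2 and 3. All ratios below are log2 ratios of knockdown over control after loess normalization, which sets each probe against other probes of like brightness on the same array. A ratio in polysome RNA moves with the abundance of the mRNA as well as with its loading, and these were not separated here.

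Proteasome mRNAs lay lower in knockdown than in control polysomes, relative to other probes of like brightness. Of the 37 measured, 16 fell and 0 rose (limma, adjusted p under 0.05), where 8.65% of all 18143 tested probes fell and 9.72% rose. At an unadjusted p under 0.05, 22 were lower and 2 higher, and no share of all probes at that threshold is given here. At the adjusted threshold, the share of tested probes called up or down was 18.4%. With the brightest probe of each accession, as used for the members, 9.33% of 14520 accessions fell and 9.94% rose, 19.3% in all. The median log2 ratio was -0.47 over the 37 and 0.018 over all tested probes, and 24 members were below 0 on all 3 arrays where 2 were above 0 on all 3. Among all tested probes with 3 values, 26.6% were below 0 and 31.8% above 0 on every array. The 16 fell to between 0.317 and 0.732 times the control level.

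The direction of these changes depended on how the arrays were centred. When each array was centred on the median of all its probes in place of loess, the median of the 37 was 0.23. Then 5 members were called risen and 1 fallen, where 19.9% of all tested probes rose and 0.32% fell. The median of all tested probes was itself 0.31, against 0.018 with loess. When each array was centred on its tested probes, 5 were called risen and 6 fallen, with a median of -0.086. Of all tested probes, 17.2% rose and 5.99% fell under that centring. The same 5 mRNAs were called risen under both centrings, PSMB10, PSMC1, PSMC6, PSMD5 and PSMD9. Before any correction, the knockdown signal was the lower on 2 arrays for 2 of the 16 fallen mRNAs, on 1 array for 6 and on none for 8, so their direction is relative to the other probes of the array. The calls also needed replicate 2: without it limma called 0 of the 37 and 0 of all 18143 probes at the adjusted threshold. At an unadjusted p under 0.05, 15 members were then lower and 3 higher, with no share of all probes given. Without replicate 1 it called 17 fallen, where 6.21% of all tested probes fell. Without replicate 3 it called 14, where 7.82% fell.

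**Figure D1:**
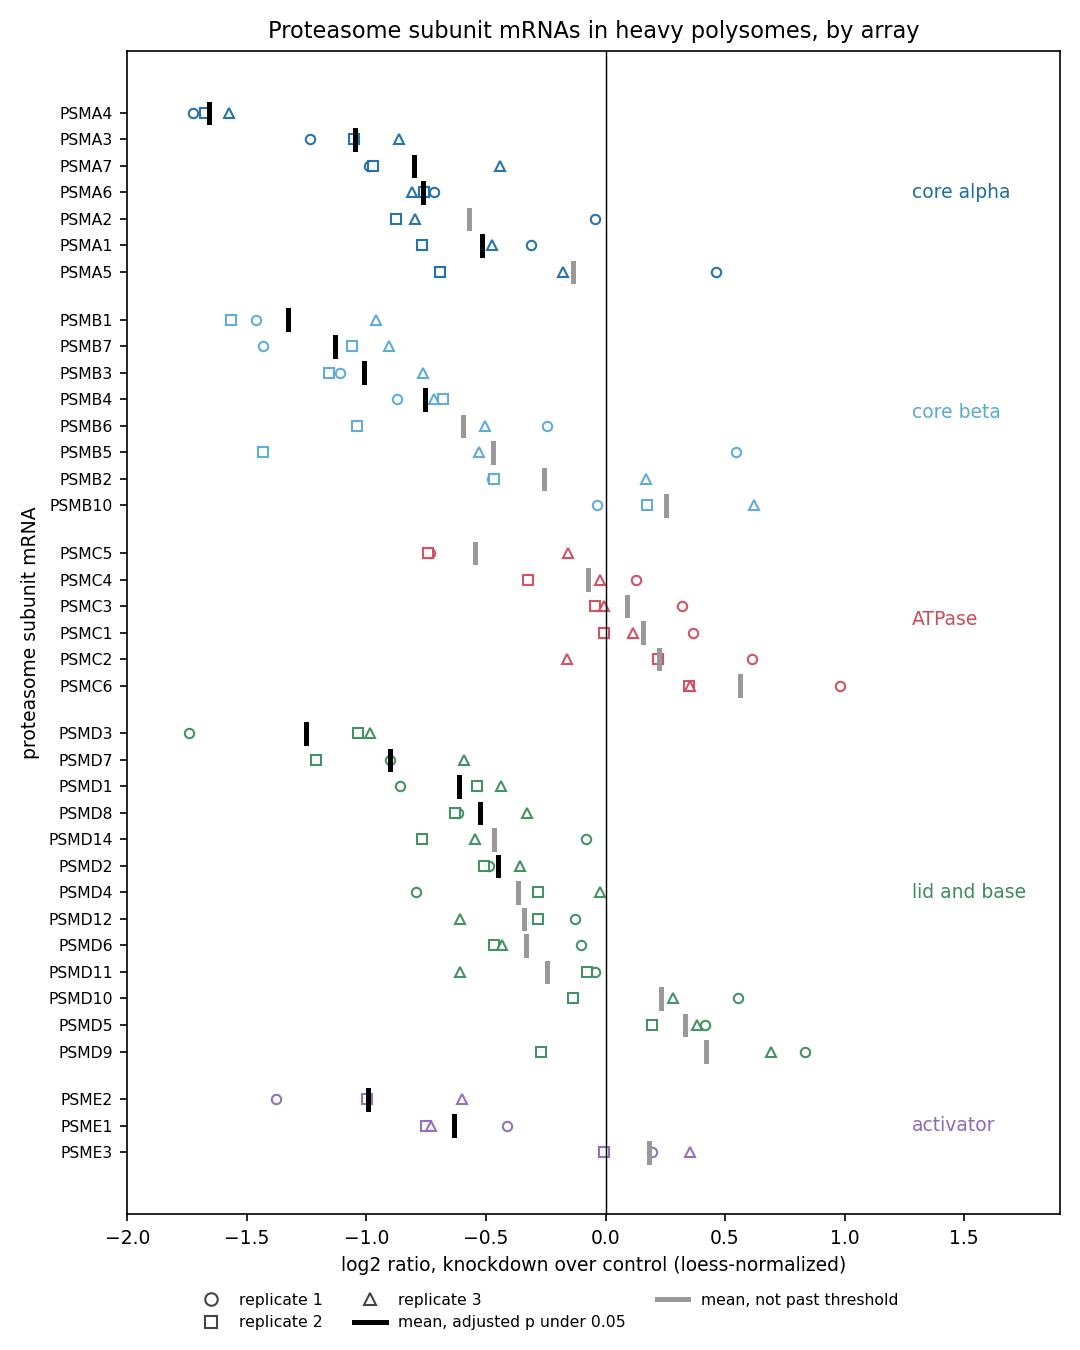
Log2 ratio of knockdown over control (x axis) for the 37 measured proteasome mRNAs (rows, grouped by subunit class), with 1 symbol for each of the 3 arrays and a bar at the mean, black where limma's adjusted p was under 0.05. All 16 black bars lie left of 0, and none is among the 6 ATPases.

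Of the 7 measured mRNAs of the alpha ring 5 fell, with a median of -0.76, and every mean lay below 0. PSMA4, a subunit whose tail closes the entrance gate in yeast, had normalized signals of 503, 436 and 2642 in the knockdown channel of replicates 1, 2 and 3, against 1659.6, 1392 and 7863 in the control channel. After normalization the knockdown signal was the lower of the pair on every array, and replicate 3 was the brightest array in both channels. PSMA4 averaged -1.66 ± 0.076 (SD, n = 3) from log2 ratios of -1.72, -1.67 and -1.57, which is 0.317 times the control level, at a limma adjusted p of 0.0141. It had the lowest mean of the 37 and remained past the threshold, below 0, in 15 of 16 alternative analyses, the exception being that without replicate 2.

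The other alpha subunits that fell are likewise structural parts of the outer ring. PSMA3 had log2 ratios of -1.23, -1.05 and -0.86 (mean -1.05 ± 0.19, SD, n = 3, limma adjusted p 0.0154). PSMA6 had -0.72, -0.76 and -0.81 (mean -0.76 ± 0.046, SD, n = 3, limma adjusted p 0.0162), the narrowest spread of the 37. PSMA7 had -0.99, -0.97 and -0.44 (mean -0.80 ± 0.31, SD, n = 3, limma adjusted p 0.0273), with replicate 3 nearer to 0 than the other arrays. PSMA1, with -0.31, -0.77 and -0.47 (mean -0.52 ± 0.23, SD, n = 3, limma adjusted p 0.0457), was close to the threshold. Under centring on all probes, PSMA1 and PSMA6 had means of 0.27 and 0.032. PSMA7 had -0.018 and PSMA3 -0.31, and neither was called (limma adjusted p 0.950 and 0.279), which left PSMA4 as the alpha mRNA called fallen, at -0.91. With centring on the tested probes, PSMA3 and PSMA4 were called fallen. The remaining alpha mRNAs, PSMA2 and PSMA5, did not pass the test, with means of -0.57 and -0.14. Their arrays disagreed: replicate 1 was the highest for both, at -0.042 for PSMA2 and 0.46 for PSMA5.

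In the beta ring 4 of 8 mRNAs fell and the median was -0.68. PSMB1, a structural subunit of the ring, had signals of 541, 497 and 3655 in the knockdown channel, against 1491, 1471 and 7115 in the control channel. After normalization the knockdown signal was the lower on every array. The signals of replicate 3 before correction were 6308.5 in the knockdown channel, against 4032 in the control channel. PSMB1 averaged -1.33 ± 0.32 (SD, n = 3) from log2 ratios of -1.46, -1.57 and -0.96 (limma adjusted p 0.0154). This is 0.398 times the control level. PSMB3, also structural, had log2 ratios of -1.11, -1.16 and -0.76 (mean -1.01 ± 0.21, SD, n = 3, limma adjusted p 0.0162). PSMB4, a further structural subunit, had -0.87, -0.68 and -0.72 (mean -0.76 ± 0.10, SD, n = 3, limma adjusted p 0.0172). The 3 arrays of PSMB4 lay within a narrow band, and those of PSMB1 and PSMB3 shared a replicate 3 nearer to 0. Under centring on all probes, PSMB1, PSMB3 and PSMB4 had means of -0.58, -0.39 and -0.029, and none was called (limma adjusted p 0.0573, 0.117 and 0.931). With centring on the tested probes, PSMB1 and PSMB3 were called fallen and PSMB4 was not, with a mean of -0.35 (limma adjusted p 0.130).

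The subunits with active sites differed in how closely their arrays repeated. PSMB7, which cuts after basic residues, had signals of 2999, 2713 and 15325 in the knockdown channel, against 8105, 5652 and 28685 in the control channel. It was the brightest proteasome probe, at the 97.3rd percentile of tested probes. Its log2 ratios of -1.43, -1.06 and -0.90 averaged -1.13 ± 0.27 (SD, n = 3) at a limma adjusted p of 0.0162. PSMB7 was thus at 0.456 times the control level. It was called under neither centring, with means of -0.25 on all probes and -0.56 on the tested probes (limma adjusted p 0.484 and 0.0711). PSMB6, which cuts after acidic residues, had log2 ratios of -0.25, -1.04 and -0.51, with a mean of -0.60 ± 0.40 (SD, n = 3) that did not pass (limma adjusted p 0.0702). PSMB5, which cuts after hydrophobic residues and is the main target of proteasome inhibitors, had 0.54, -1.43 and -0.53, so that replicates 1 and 2 pointed opposite ways. Its mean of -0.47 ± 0.99 (SD, n = 3) had a 95% interval from -1.40 to 0.45. That interval uses limma's spread, which is moderated over all tested probes and is smaller than that of PSMB5 itself.

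PSMB10 takes the place of PSMB7 in the immunoproteasome, the form of the barrel induced by interferon gamma. Its signals were 1991, 1816 and 9086 in the knockdown channel, against 2039, 1611 and 5899.7 in the control channel. The log2 ratios were -0.034, 0.17 and 0.62, averaging 0.25 ± 0.34 (SD, n = 3), and the 95% interval ran from -0.13 to 0.64 (limma adjusted p 0.293). PSMB10 was called risen under both centrings, with means of 1.06 on all probes and 0.74 on the tested probes (limma adjusted p 0.0279 and 0.0211). In the reported fit it was the only core subunit with a mean above 0. The log2 ratio of PSMB7 minus that of PSMB10 was -1.40, -1.23 and -1.53 on the 3 arrays. That pair was picked out after the values were seen, and the difference was not tested. PSMB2, the remaining structural subunit, did not pass, with a mean of -0.26.

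**Figure D2:**
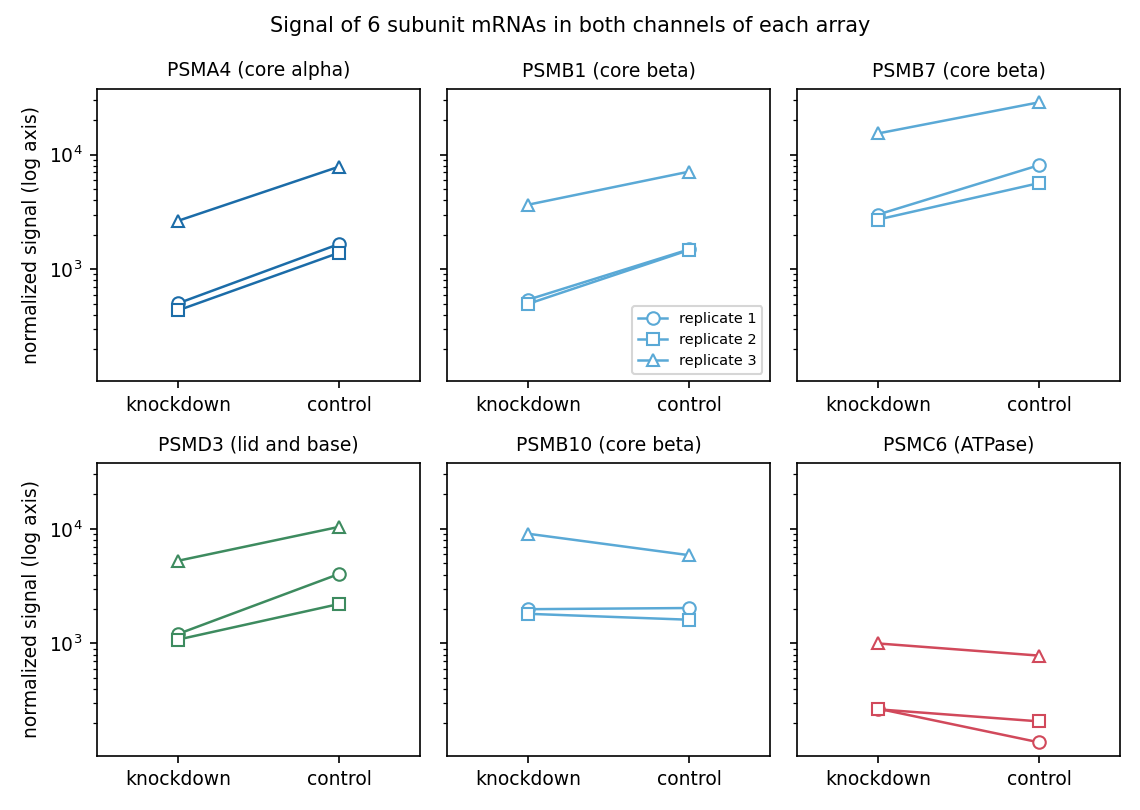
Normalized signal (y axis, logarithmic) of 6 proteasome mRNAs in the knockdown channel (left) and the control channel (right), with a line for each of the 3 arrays. For PSMA4, PSMB1, PSMB7 and PSMD3 the knockdown end is the lower on every array, while for PSMC6 it is the higher on every array and for PSMB10 on replicates 2 and 3.

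None of the 6 ATPase mRNAs was called in the reported fit, in either direction. Under some alternatives 3 of them were called, PSMC5 and PSMC6 also under alternatives that kept loess. PSMC1 to PSMC6 encode the motor ring that pulls substrates into the core. Their means ran from -0.55 to 0.56, with a median of 0.12, and their adjusted p from limma ran from 0.0652 to 0.715. PSMC6 had signals of 269.7, 266 and 1000.4 in the knockdown channel, against 137, 209 and 783 in the control channel. It was the higher in knockdown on all 3 arrays, with log2 ratios of 0.98, 0.35 and 0.35 and the highest mean of the 37, 0.56 ± 0.36 (SD, n = 3, limma adjusted p 0.0682). PSMC6 passed the threshold upward in 5 of 16 alternatives, with an adjusted p from 0.0134 to 0.183 over all of them. PSMC5 was the lowest ATPase, with log2 ratios of -0.73, -0.74 and -0.16 (mean -0.55 ± 0.34, SD, n = 3, limma adjusted p 0.0652). PSMC5 passed the threshold downward in 5 of 16 alternatives, with an adjusted p from 0.0233 to 0.801 over all of them. PSMC1 was called risen under both centrings, with means of 0.93 on all probes and 0.61 on the tested probes (limma adjusted p 0.0280 and 0.0160). In the reported fit the means of PSMC1, PSMC2, PSMC3 and PSMC4 were 0.16, 0.22, 0.090 and -0.072, each within 1 SD of 0.

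Among the 13 measured PSMD mRNAs 5 fell, and the median was -0.37. PSMD3, a lid subunit, had signals of 1208, 1079.6 and 5269 in the knockdown channel, against 4045, 2211 and 10428 in the control channel. After normalization knockdown was the lower on each array, by the widest margin on replicate 1. PSMD3 averaged -1.25 ± 0.42 (SD, n = 3) from log2 ratios of -1.74, -1.03 and -0.98 (limma adjusted p 0.0186). This is 0.419 times the control level. PSMD7, the lid partner of the deubiquitinase PSMD14, had log2 ratios of -0.90, -1.21 and -0.59 (mean -0.90 ± 0.31, SD, n = 3, limma adjusted p 0.0224). PSMD14 itself had -0.083, -0.77 and -0.55 and did not pass (mean -0.46 ± 0.35, SD, n = 3, limma adjusted p 0.0991).

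Both large scaffold proteins of the base fell. PSMD1 had log2 ratios of -0.86, -0.54 and -0.44 (mean -0.61 ± 0.22, SD, n = 3, limma adjusted p 0.0314). PSMD2, which docks proteins that deliver ubiquitinated substrates, had -0.49, -0.51 and -0.36 (mean -0.45 ± 0.081, SD, n = 3, limma adjusted p 0.0361). The lid subunit PSMD8 had -0.62, -0.63 and -0.33 (mean -0.52 ± 0.17, SD, n = 3, limma adjusted p 0.0347). PSMD1, PSMD2 and PSMD8 kept their calls in 9, 8 and 8 of 16 alternatives, and their means under centring on all probes were 0.042, 0.11 and 0.19. The ubiquitin receptor PSMD4 and the lid subunits PSMD6, PSMD11 and PSMD12 did not pass, with means of -0.37, -0.33, -0.24 and -0.34.

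The PSMD genes with means above 0 were PSMD5, PSMD9 and PSMD10, chaperones that help assemble the base and leave before the proteasome is complete. PSMD9 had log2 ratios of 0.84, -0.27 and 0.69 (mean 0.42 ± 0.60, SD, n = 3), so replicate 2 went against the other arrays. PSMD5 was above 0 on every array, with 0.42, 0.19 and 0.38 (mean 0.33 ± 0.12, SD, n = 3). PSMD10 had 0.56, -0.14 and 0.28 (mean 0.23 ± 0.35, SD, n = 3). None of the 3 passed limma's test, with adjusted p of 0.263, 0.0832 and 0.338. Under centring on all probes, PSMD9 and PSMD5 were called risen, with means of 1.02 and 0.81 (limma adjusted p 0.0233 and 0.0297). They were also called risen with centring on the tested probes, at 0.70 and 0.49 (limma adjusted p 0.0298 and 0.0334). The 10 PSMD genes that encode lasting parts of the particle all had means below 0, from -1.25 to -0.24, with a median of -0.46, where the median of the 3 chaperones was 0.33. This split was seen in the values and was not tested. The chaperones' means stayed above 0 in all 48 values of the 16 alternatives, and both centrings gave them higher means than loess. The other PSMD means did not all stay below 0. Of the 13 PSMD means, 11 were above 0 under centring on all probes, and 6 with centring on the tested probes. Alternatives that changed only the filter or the test left the ratios as they were, so their signs could not turn. Keeping flagged spots also left these means unchanged. The probes of PSMD9, PSMD5 and PSMD10 lay at the 77.7th, 61.1st and 45.1st percentiles of brightness among tested probes, where the median of the 37 members was at the 88.7th.

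The activators cap the core in place of the regulatory particle, and 2 of 3 fell. PSME2 had log2 ratios of -1.38, -0.997 and -0.60 (mean -0.99 ± 0.39, SD, n = 3, limma adjusted p 0.0240), which is 0.503 times the control level. PSME1, its partner in the interferon-induced activator ring, had -0.41, -0.75 and -0.73 (mean -0.63 ± 0.19, SD, n = 3, limma adjusted p 0.0273). The mean of PSME1 turned to 0.11 under centring on all probes, while that of PSME2 was -0.19. PSME3, which forms a nuclear activator ring by itself, had 0.20, -0.0052 and 0.35 (mean 0.18 ± 0.18, SD, n = 3, limma adjusted p 0.311). It was the dimmest of the 37, at the 32.6th percentile, and its control channel stood well above background on 2 of 3 arrays.

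Most proteasome probes were bright, and brightness is what separates the normalizations. When the tested probes were split into 5 equal classes of brightness, 27 of the 37 members lay in the brightest class and 15 of these 27 fell, where 18.3% of all 3629 probes of that class fell and 18.4% rose. With loess, the 27 had a median log2 ratio of -0.60 and all probes of the class -0.0044, a difference of -0.59. With centring on the tested probes, the 27 had a median of -0.21 and all probes of the class 0.42, a difference of -0.63. Centring on all probes gave 0.11 and 0.74, by construction the same difference. The 27 bright members lay below the median of bright probes by a like amount with loess and with centring. Within a class of brightness, both take much the same from members and from all probes, so this likeness was largely set in advance. The level of the bright probes as a whole moved. Only 10 members lay in the dimmer classes, and 1 of them, PSMD2, fell, where 13.1%, 7.99% and 3.36% of all probes fell in the next 3 classes down in brightness. The 7, 2 and 1 members of these 3 classes had medians that differed from those of all their probes by -0.10, 0.15 and 0.18 with loess, so a median well below that of like probes was seen in the brightest class.

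**Figure D3:**
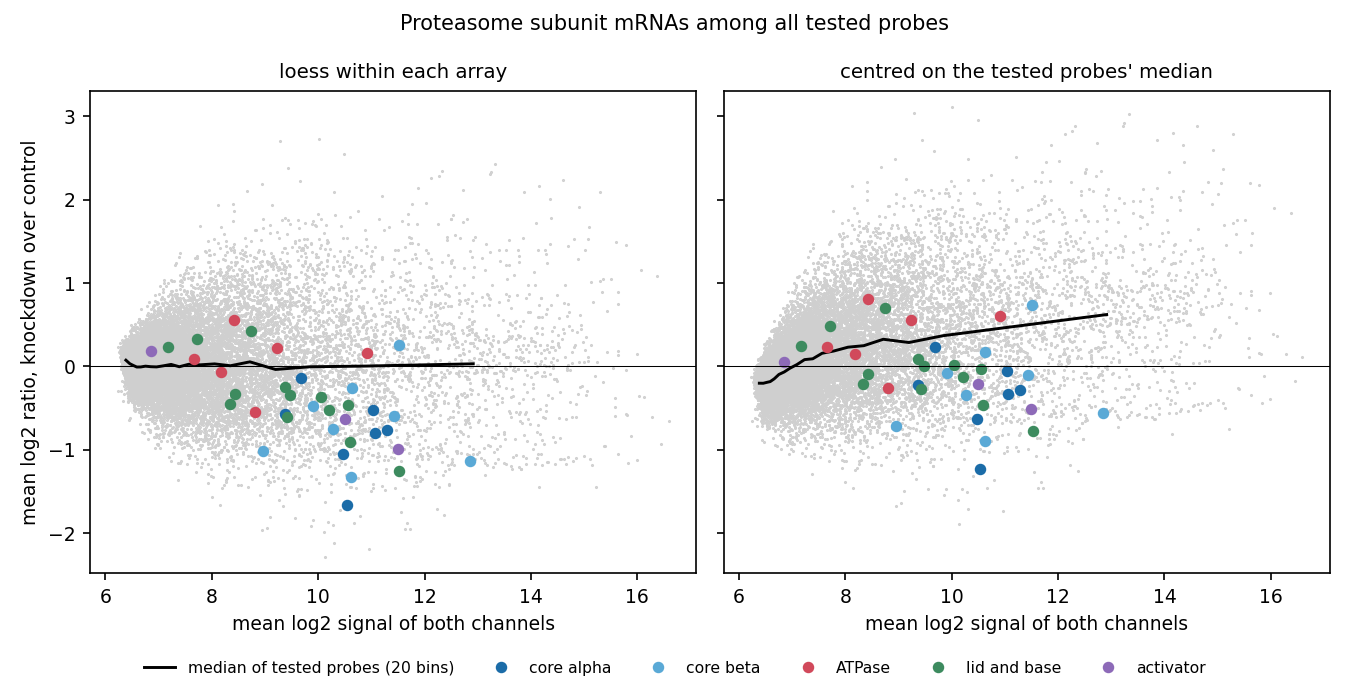
Mean log2 ratio of knockdown over control (y axis) against mean log2 signal of both channels (x axis) for all 18143 tested probes (grey) and the 37 proteasome mRNAs (coloured by class), after loess (left) and after centring on the tested probes (right); the black line is the running median of the tested probes. The line is flat after loess and climbs with brightness after centring, and most proteasome points lie below it in both panels.

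The gap between the core and ATPase medians moved less with the processing than their level did. A constant shift of an array moves both medians alike, so this was partly set in advance. The order of the other classes did change: the alpha ring had the lowest median in the reported fit, and the beta ring without replicate 1. The median of the 15 core mRNAs was -0.76 and that of the 6 ATPase mRNAs 0.12, a difference of -0.88. Array by array, the core medians were -0.72, -0.97 and -0.72 and the ATPase medians 0.34, -0.025 and -0.014, with differences of -1.06, -0.95 and -0.70 on replicates 1, 2 and 3. The difference ran from -0.90 to -0.68 in the 13 alternatives with 3 arrays and from -0.91 to -0.79 when a replicate was left out. Alternatives that changed only the filter or the test could not move it from -0.88, and keeping flagged spots also gave -0.88. Both centrings gave -0.68, by construction the same value and the smallest of these in size. The classes were compared after their values were seen and were not tested, and the ATPase probes differ from the core probes in brightness as well. PSMC3, PSMC4, PSMC6 and PSMC5 lay at the 59.9th, 69.7th, 73.5th and 78.5th percentiles, where the dimmest core probe, PSMB3, lay at the 80.2nd. PSMC2 and PSMC1 lay at the 82.9th and 92.6th. The part of brightness in this gap was not tested.

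**Figure D4:**
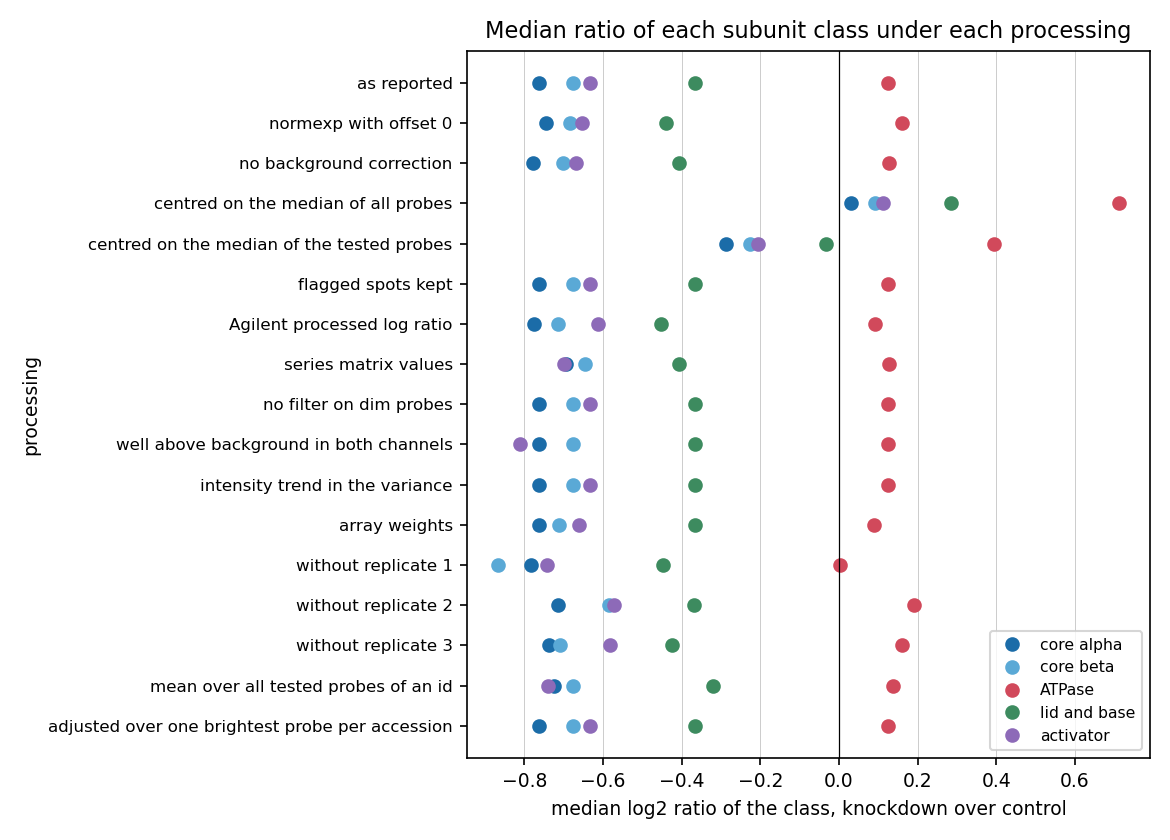
Median log2 ratio of knockdown over control (x axis) of each subunit class for the reported processing and the 16 alternatives (rows). The ATPase median is the highest of the 5 classes in every row, and both rows with median centring are shifted to the right as a whole.

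Different probes of an mRNA mostly gave the same direction. The 37 identifiers had 52 probes, of which 51 were tested, and 11 identifiers had more than 1 tested probe. In 9 of these 11 all probes had means of 1 sign, where this held for 70.9% of all 2915 accessions with more than 1 tested probe. Both probes were called fallen for PSMA6, with means of -0.76 and -0.68, for PSMD3, with -1.25 and -0.50, and for PSME1, with -0.63 and -0.85. The 3 probes of PSMC1 gave 0.16, 0.17 and 0.22, and none was called. For PSMB1 the second probe had -0.057, -1.27 and -0.97 and was not called (mean -0.77 ± 0.63, SD, n = 3, limma adjusted p 0.0891), so its replicate 1 did not repeat the -1.46 of the brightest probe. For PSMD1 the dimmer probe had a mean of -0.028 ± 0.12 (SD, n = 3), against -0.61 for the brightest.

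PSMB2 and PSMC6 had probes of both signs. The dimmer PSMB2 probe, A_23_P170058, rose with log2 ratios of 0.95, 0.26 and 0.68 (mean 0.63 ± 0.35, SD, n = 3, limma adjusted p 0.0486), where the brightest, A_24_P284893, had a mean of -0.26 ± 0.37 (SD, n = 3). Of the 4 PSMC6 probes, 3 had means of 0.56, 0.30 and 0.48 and 1 had -0.19 ± 0.052 (SD, n = 3). The direction of PSMB2 therefore turns on the probe chosen. The probes were designed on human sequence and measured monkey RNA, and how well each matches the monkey mRNA was not tested.

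**Figure D5:**
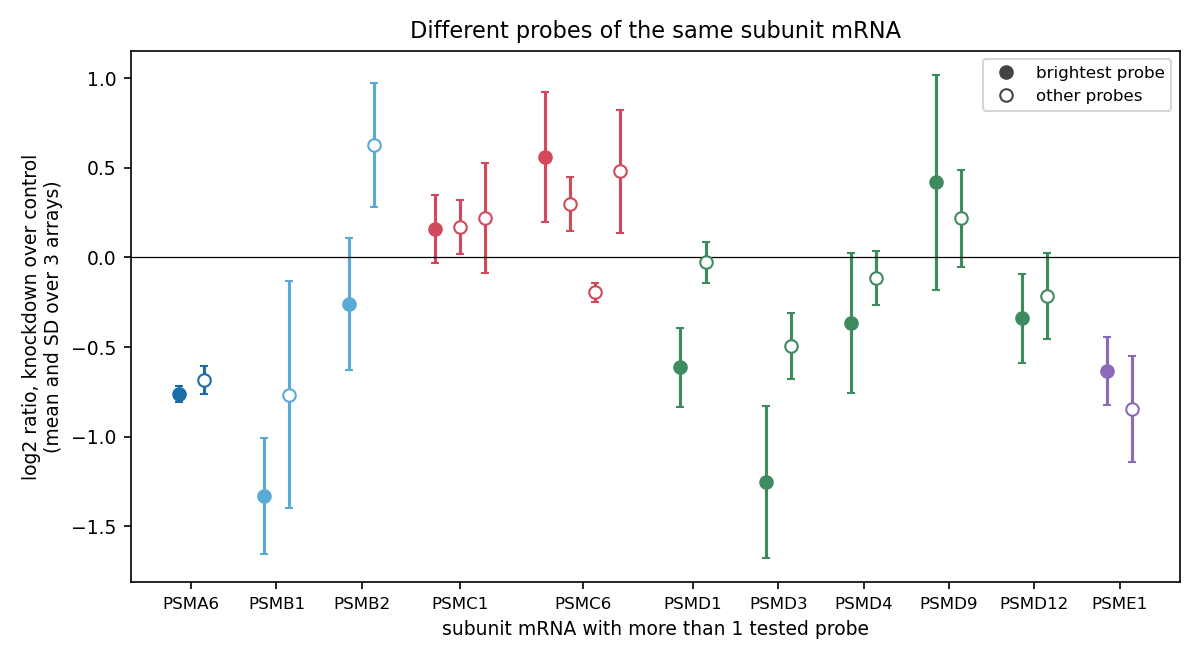
Mean log2 ratio of knockdown over control (y axis, bars are SD over 3 arrays) of each tested probe of the 11 proteasome mRNAs with more than 1, with the brightest probe filled. Probes lie on the same side of 0 for 9 of the 11, and on both sides for PSMB2 and PSMC6.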

How the data were processed

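The 3 arrays of 41000 human probes were read by the authors with Agilent Feature Extraction 10.9.1.1, per the file headers, which give intensity values for each spot. The submitters' processing notes name version 10.9 and limma. The deposited log10 ratio (Cy5 over Cy3 processed intensity) and the authors' deposited table of log2 ratios served as alternatives. The table states neither scale, centring nor direction. On the tested probes its columns correlated with the reported ratios at Pearson's r of 0.984, 0.977 and 0.975 on replicates 1, 2 and 3, with medians of 0, 0.01 and 0.01. Other 0 or 1 flags of the deposited files marked outliers, saturation and signal above background.

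Median spot intensities were corrected with normexp (offset 50, which pulls dim ratios toward 0) and loess-normalized in R 4.3.3 with limma 3.58.1. Flagged spots (142 to 150 per array) were left out and spots of a probe averaged. Probes with at least 1 channel well above background on all 3 arrays, 18143 in number, were fitted with lmFit and eBayes, 2-sided, with Benjamini-Hochberg adjustment over all of them. The procedure was tested on simulated data. P-values rest on the spread between 3 arrays, whose number limits the precision, and an exact sign-flip test could not have reached 0.05. The spread of each probe was moderated by eBayes toward that of all tested probes. P-values and 95% intervals therefore do not rest on a probe's own 3 arrays alone.

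The members and lists were chosen with earlier results of these data known. The rule for named genes asked for every called member and the 3 with the highest and lowest means, and other members were named for their role or after their values were seen. The planned list of other ubiquitin-proteasome genes and the cell type markers could not be matched, since no table used here pairs identifiers with symbols, and neither was computed.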

Additional observations from a re-analysis of the deposited data

How the results depend on the processing

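The 16 fallen mRNAs stayed below 0 in 250 of 256 values under 16 alternatives, were called fallen in 190 and called risen in 0. All 6 exceptions came from centring on the median of all probes. The other filters on dim probes, the intensity trend and the adjustment over the brightest probe of each accession changed the test and not the ratios. Signs could not turn under these alternatives, and keeping flagged spots also left the members' ratios unchanged. Counts of risen and fallen members and their median were 5, 1 and 0.23 under centring on all probes, where 19.9% of all tested probes rose and 0.32% fell. They were 5, 6 and -0.086 with centring on the tested probes, where 17.2% rose and 5.99% fell. Agilent's processed log ratio gave 9 fallen, where 10.8% of all tested probes fell. Normexp with offset 0, the series matrix values and an intensity trend in the variance each gave 1 risen member, PSMC6. Of all tested probes, 15.9%, 13.4% and 16.5% rose under these. Of the members not called in the reported fit, PSMC5 was called fallen in 5 of 16 alternatives and PSMB6 in 2. PSMA2, PSMB5 and PSMD14 were called fallen in 1 each. PSMC6 was called risen in 5, and PSMB10, PSMC1, PSMD5 and PSMD9 in 2 each, both centrings. Leaving out a replicate gave 0 to 17 fallen, 0 risen, and medians from -0.50 to -0.39, the count of 0 without replicate 2. Of all tested probes, 7.06% rose and 6.21% fell without replicate 1, and 8.28% and 7.82% without replicate 3. Apart from the centring itself, the cause of these differences was not tested.

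Signs turned in 29 of 591 values, and none of these was past the threshold. The 591 include the alternatives that left the ratios unchanged, where no sign could turn. Centring on all probes gave PSMA1 0.27, PSMA2 0.090, PSMA5 0.55, PSMA6 0.032, PSMB2 0.49, PSMB5 0.24, PSMB6 0.21, PSMC4 0.47, PSMC5 0.057, PSMD1 0.042, PSMD2 0.11, PSMD4 0.33, PSMD6 0.23, PSMD8 0.19, PSMD11 0.41, PSMD12 0.32, PSMD14 0.29 and PSME1 0.11. Centring on tested probes gave PSMA5 0.24, PSMB2 0.17, PSMC4 0.15, PSMD4 0.014, PSMD11 0.091 and PSMD12 0.0054. With a replicate left out, PSMA5 ran from -0.43 to 0.14, PSMB5 from -0.98 to 0.0078 and PSMC4 from -0.17 to 0.053, each above 0 without replicate 2, and PSMC3 from -0.025 to 0.16, below 0 without replicate 1. The mean over probes gave PSMB2 0.19. Alternatives for other ubiquitin-proteasome genes were not run. Each ratio is already the difference between knockdown and control RNA of 1 replicate on 1 array, so the reported fit is itself the paired analysis, and no unpaired fit was run.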
